A study of Rattus norvegicus with 6 samples.

Results

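The T cell receptor complex and its co-receptors were followed in spinal cord RNA on 6 one-colour rat arrays (Agilent), which hold probes for the whole genome. The 9 genes were 4 CD3 chains (Cd3d, Cd3e, Cd3g, Cd247), the co-receptors Cd4 and Cd8a, the kinase Lck, and the accessory surface molecules Cd2 and Cd5. A probe was taken where the gene name in the deposited data equalled the symbol, which held for 8 genes, and Lck was found through the probe's description. Each gene had 1 probe with 1 spot per array, so that the 9 genes rest on 9 of 41012 probes.

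All rats were adult Lewis rats, and the RNA came from formaldehyde-fixed, paraffin-embedded sections of spinal cord. ENMO (experimental neuromyelitis optica) rats had received T cells specific for myelin basic protein (MBP) and NMO-IgG, a human IgG preparation from 1 patient that contains antibodies to the water channel aquaporin-4. EAEcoI rats had received the same kind of T cells with commercial human control IgG, and EAEcoP rats the T cells with PBS. Rats given NMO-IgG only or control IgG only had no T cell transfer, and healthy controls were untreated. RNA of 5 rats was pooled per group, or of 3 rats for the healthy control, and each group had 1 array and therefore no replicate. Cord with T cells was taken on day 5 of the transfer, 24 hours after antibody or PBS had been given on day 4, and cord of the antibody-only rats 24 hours after the injection. The comparisons asked how far transcripts of the transferred T cells were seen in inflamed cord (ENMO, EAEcoI and EAEcoP, "all T", against the other 3 arrays, "all non-T"), and whether ENMO differed from EAE. The host's own T cells carry the same genes, and in pooled tissue fewer cells of a type and less RNA per cell cannot be told apart.

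The T cell receptor recognises a peptide held by an MHC molecule but has no signalling tail of its own. It passes the signal to the CD3 chains gamma, delta and epsilon and to the zeta chain encoded by Cd247, whose tails are phosphorylated by Lck, a Src family kinase that CD4 and CD8 bring to the receptor. MBP-specific T cells that transfer EAE in Lewis rats are CD4+ cells, and in the rat CD4 is also found on macrophages and microglia.

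The probes are the only view of these transcripts, so the sequences of those on the CD3 chains are shown first. For Cd3d the last 30 of 60 bases are given, with AATAAA, the polyadenylation signal, in capitals, and the other probes are whole. They are written 5′ to 3′ as deposited.
Cd3d: cttccccttgtgctcaaccAATAAAgatgt
Cd3e: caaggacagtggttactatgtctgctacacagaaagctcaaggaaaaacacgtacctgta
Cd3g: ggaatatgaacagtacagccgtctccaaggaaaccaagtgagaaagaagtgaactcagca
Cd247: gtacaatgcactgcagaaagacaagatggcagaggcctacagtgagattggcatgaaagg

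The genome build behind the deposited probe positions is not given in the sources used here. By those positions the probes of Cd3g (NM_001077646), Cd3d (NM_013169) and Cd3e (NM_001108140) lie close together on chromosome 8, at chr8:47924376-47924435, chr8:47936669-47936728 and chr8:47950313-47950372. The Cd247 probe (NM_170789) is placed at chr13:81590937-81591687, a stretch longer than its 60 bases, so its 2 ends lie in different exons, as also holds for Cd4, Lck and Cd5. Of the 9 probes only that of Cd3d holds AATAAA, which is found in 4.26% of all probes. On at least 1 array 62.4% of the probes with it and 67.2% of those without it were well above background.

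Values are normalized signal intensities (NSI), the scanner's background-corrected intensities after quantile normalization over the 6 arrays. An array's own background mark tells whether a probe was well above background there, which held for 35.3% of probes (control IgG only) to 60.0% (EAEcoP). Probes spotted several times had, on 1 array, an SD between spots that corresponds to a 1.43-fold difference between 2 arrays above an intensity of 300, 1.56-fold from 30 to 300 and 1.79-fold below 30, and this spread does not cover differences between rats. Of the 9 genes, Cd3d, Lck and Cd5 were well above background on all 6 arrays, Cd3g, Cd247, Cd4 and Cd8a on some, and Cd3e and Cd2 on none. The plot of the 9 genes by array shows each value.

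**Figure D1:**
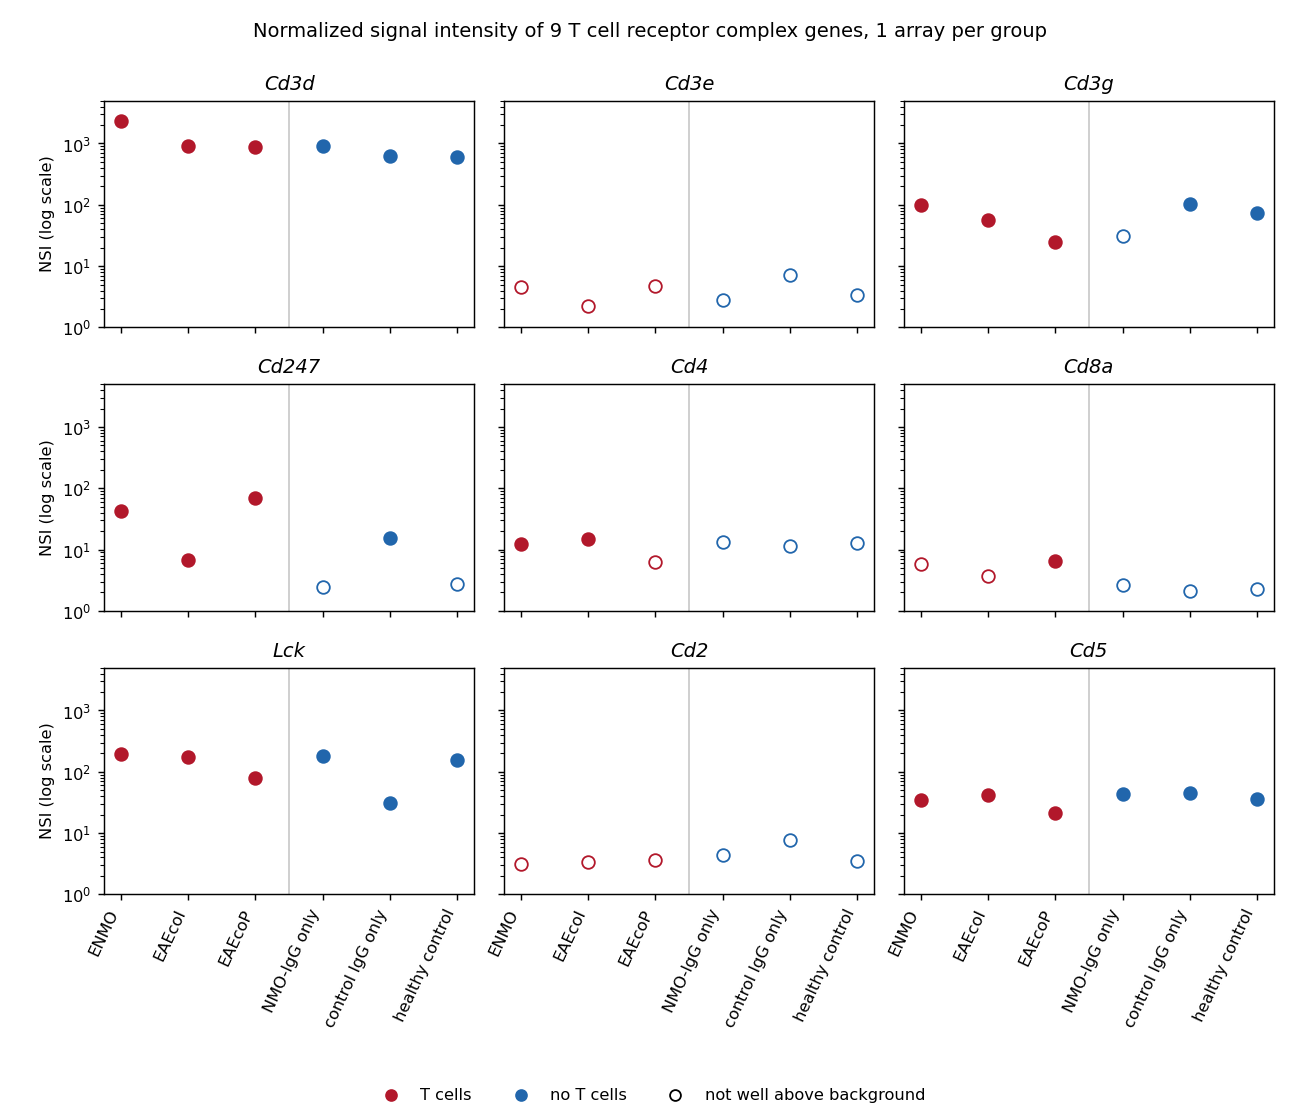
NSI of the 9 genes (log axis) on each of the 6 arrays, 1 point per array, red with and blue without T cells, open where the probe was not well above background. Cd3d on the ENMO array (NSI 2348) lies above the other 5 arrays, Cd247 is filled on the 3 arrays with T cells and on that of control IgG only, and Cd3e and Cd2 are open throughout.

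Cd3d, the delta chain that pairs with epsilon in the receptor complex, gave an NSI of 2348 on the ENMO array, against 924 for EAEcoI and 872 for EAEcoP. Without T cells the NSI was 594 in healthy cord, 628 after control IgG and 918 after NMO-IgG. ENMO stood apart from every other array by more than the spread between spots, while EAEcoI, NMO-IgG only and EAEcoP were close together and the 2 lowest arrays differed little. Cd3d was thus well above background in the cord of rats that had received no T cells, where Cd3e and Cd2 were not. Whether the probe reports Cd3d of T cells alone was not tested, which bears on each value of Cd3d given here.

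Cd3g, the gamma chain, was lowest in EAEcoP with an NSI of 24.3, and reached 56.9 in EAEcoI and 99.0 in ENMO. Healthy cord had 72.6 and control IgG only 103, and NMO-IgG only had 31.3, not well above background. Control IgG only was the highest and EAEcoP the lowest array, and those with and without T cells covered much the same range.

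Cd247, the zeta chain, had its highest NSI in EAEcoP (69.4), followed by ENMO (41.9), and only 6.81 in EAEcoI. Control IgG only reached 15.6, and NMO-IgG only (2.43) and healthy control (2.70) were not well above background. EAEcoI lay below control IgG only, so the groups overlapped, and ENMO and EAEcoP were above all other arrays. Cd3e, the epsilon chain found in every assembled CD3 complex and the usual target of anti-CD3 antibodies, stayed between 2.24 and 7.08 and was not well above background on any array, those with T cells included.

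Among the co-receptors, Cd4, which binds MHC class II, was well above background in ENMO (NSI 12.3) and EAEcoI (14.8). On the other arrays it was not well above background, at 6.33 in EAEcoP, 13.0 in healthy cord, 11.6 after control IgG alone and 13.3 after NMO-IgG alone, so that values above and not above background overlapped. Cd8a, a chain of the co-receptor for MHC class I, was well above background in EAEcoP (6.41) alone, with 5.91 in ENMO, 3.69 in EAEcoI and 2.10 to 2.68 in the absence of T cells. Every array with T cells lay above every array without, but all of these values are near background.

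Lck gave an NSI of 195 on the ENMO array, 176 for EAEcoI and 78.2 for EAEcoP, while healthy cord had 156, NMO-IgG only 184 and control IgG only 31.4. ENMO, NMO-IgG only, EAEcoI and healthy control followed each other within the spread between spots, and control IgG only was the lowest. Cd5, a surface molecule that dampens receptor signalling, ranged from 21.4 in EAEcoP to 45.6 for control IgG only. It had 34.5 in ENMO, 42.4 in EAEcoI, 36.5 in healthy cord and 43.0 after NMO-IgG alone, so that EAEcoP was the lowest array. Cd2, an adhesion molecule that binds CD48 in rodents, stayed between 3.19 and 7.74 and was not well above background on any array.

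Since no group was repeated, arrays of different antibody treatment stood in for replicates, and p-values measure the spread between such arrays. In the comparison of all T with all non-T, 0 of 27488 probes passed an adjusted p under 0.05 in limma (0.0%), and 3149 (11.5%) had an unadjusted p under 0.05. The 7 genes that could be tested had adjusted p-values between 0.381 and 0.894. The difference was above 0 for 4 of the 7 genes and for 50.3% of all probes, but Cd4 and Cd8a entered the fit only through arrays with T cells, so the count supports no direction. Cd247 had a log2 difference of 2.53 (SE 0.98, 3 arrays against 3, limma unadjusted p = 0.0285, adjusted p = 0.381). On 2 of the 3 arrays without T cells it was not well above background. With these set to the lowest NSI above background of their array the difference was 1.86, or 3.62-fold, a calculation chosen after the values were seen. It is not a lower limit, since other processing gave smaller differences. Leaving out 1 array gave 1.85 (without EAEcoP) to 3.53 (without EAEcoI), and slide as a block gave 1.60 (SE 0.56). Cd3d differed by 0.82 (SE 0.58, 1.77-fold, limma adjusted p = 0.591) and Lck by 0.53 (SE 0.76, limma adjusted p = 0.794). For Cd3g, Cd4 and Cd5 the log2 differences were -0.26, -0.26 and -0.40, each smaller than its SE. Cd8a had a log2 difference of 1.15 (SE 0.51, limma adjusted p = 0.431), but it passed the filter through EAEcoP alone, where it was highest, so that neither this value nor the order of its arrays can be told from background.

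The normexp background correction brought the log2 difference of Cd247 to 0.42 and that of Cd8a to 0.02. With no normalization between arrays all 7 differences were above 0, as the median of all probes then shifted to 0.73. The 6 arrays came from 2 slides, slide 1 with control IgG only, EAEcoP and ENMO and slide 2 with the other 3. Every Cd247 value of slide 1 (15.6, 69.4 and 41.9) was above every value of slide 2 (6.81, 2.43 and 2.70). Cd247 differed by 1.79 within slide 1 and 1.41 within slide 2 on the log2 scale, and Cd3d by 1.19 and 0.32, without a test. For Lck the 2 slides gave 1.98 and 0.06, and leaving out control IgG only gave -0.28.

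**Figure D2:**
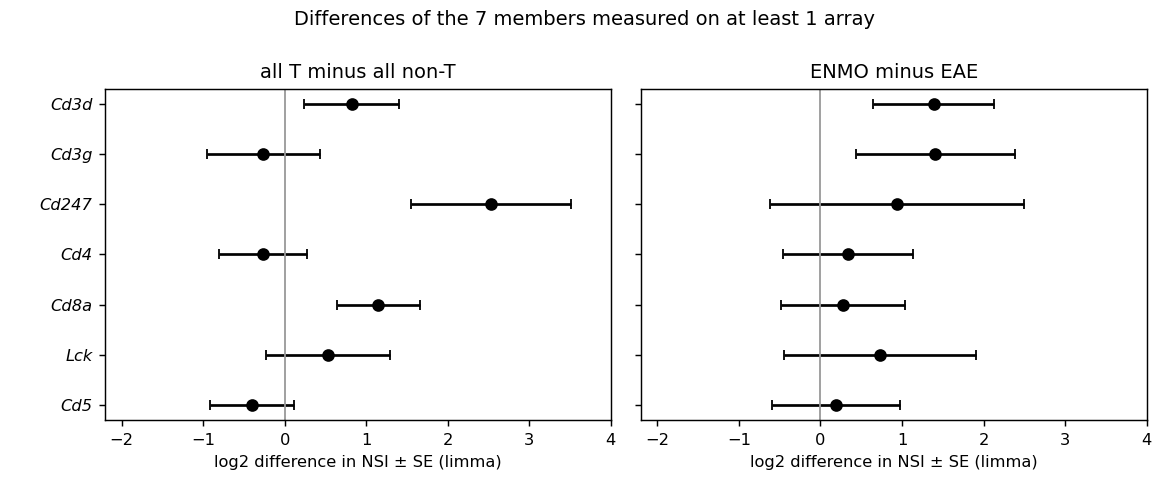
Log2 differences in NSI with SE from limma for the 7 testable genes, for all T minus all non-T (left, 3 arrays against 3) and ENMO minus EAE (right, 1 array against 2). Cd4 and Cd8a were well above background on arrays with T cells only. Cd247 (2.53) is farthest from 0 on the left, and on the right all 7 lie above 0, with Cd3g (1.41) and Cd3d (1.39) the highest.

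Arrays with the same antibody were then set side by side, with and without T cells. In each of these pairs the 2 arrays lay on different slides, so that within a pair T cells and slide cannot be told apart, and in all 3 pairs Cd247 was higher on slide 1. In ENMO, Cd3d was 2.56-fold higher than for NMO-IgG only, Cd3g at least 3.16-fold and Cd247 at least 7.98-fold, while Lck (1.06-fold) and Cd5 (0.801-fold) were within the spread between spots. These were 3 of the 5 genes with a ratio in this pair, where 15.9% of the probes well above background on at least 1 of both arrays differed more than 2-fold in that direction. With control IgG, Lck was 5.63-fold higher in EAEcoI than for control IgG only, 1 of 6 genes at a background of 24.5%, and Cd247 was 2.29-fold lower, 1 of 6 at 16.1%. Without antibody, Cd247 was at least 13.6-fold higher in EAEcoP than in healthy control, 1 of 6 at 33.1%, and Cd3g 2.99-fold lower, 1 of 6 at 28.8%. Here and below, genes were counted by such limits, while shares of all probes use values as measured, so count and share are not fully alike. By values as measured Cd8a (log2 1.51, near background) also passed 2-fold in EAEcoP over healthy control. Cd4 in ENMO over NMO-IgG only and Cd8a in ENMO over EAEcoP had no limit and were left out of the counts. Cd3d was 1.47-fold higher with T cells in both of these pairs, close to the 1.43-fold spread between spots, and was thus higher in all 3 pairs. Of the other genes with a ratio in each pair, Cd5 was lower with T cells every time (0.801, 0.931 and 0.587-fold), and Cd3g, Cd247 and Lck were higher in some pairs and lower in others. The share of all probes with 1 direction in all 3 pairs was not worked out, so the constant directions of Cd3d and Cd5 carry no weight.

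**Figure D3:**
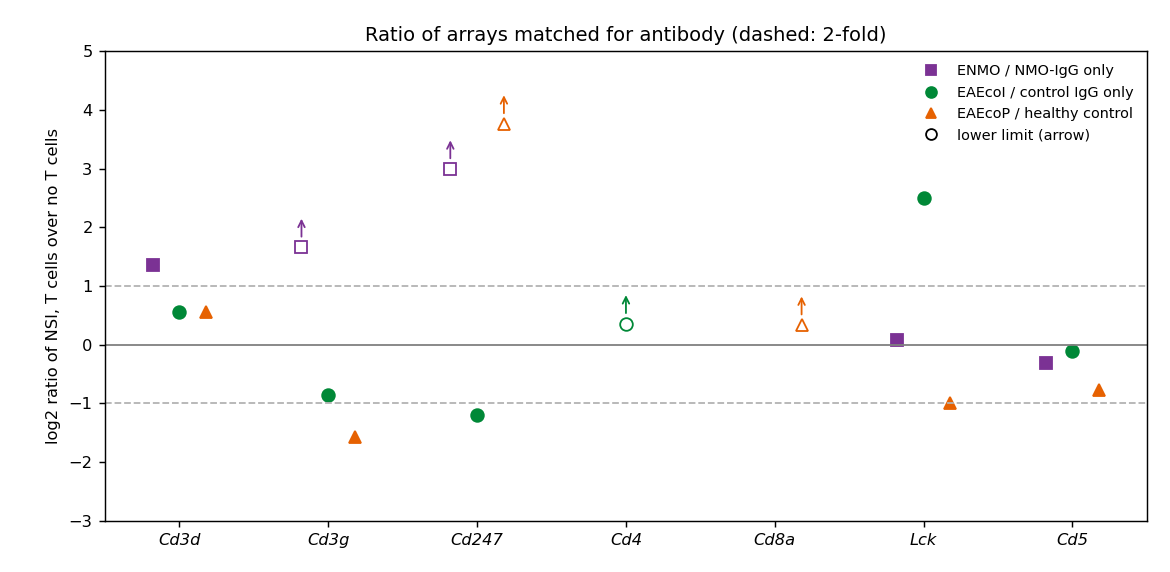
Log2 ratio of NSI with over without T cells for the 3 pairs of arrays of the same antibody treatment, with open symbols and arrows for lower limits where the array without T cells was not well above background. Cd3d lies above 0 in all 3 pairs, and Cd3g, Cd247 and Lck lie on both sides of 0. The arrays of each pair come from different slides.

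In ENMO against EAE (the mean of EAEcoI and EAEcoP), 0 of 27459 probes passed in limma (0.0%), with 1584 (5.77%) at an unadjusted p under 0.05, none of them among the 7 genes. All 7 differences were above 0, as were those of 51.2% of all probes, but 4 of 7 with no normalization, 5 of 7 against either EAE array alone and 6 of 7 with normexp or with slide as a block. All 7 rest on the same ENMO array, Cd8a was not well above background there, and Cd4 entered the fit only through ENMO and EAEcoI. The count therefore supports no direction. Cd3g was 2.67-fold higher (log2 1.41, SE 0.97, limma adjusted p = 0.888) and Cd3d 2.62-fold (log2 1.39, SE 0.74, limma adjusted p = 0.884). Cd247 (0.94, SE 1.56), Lck (0.73, SE 1.18), Cd4 (0.34), Cd8a (0.28) and Cd5 (0.19) differed by less than the SE. The comparison shares the ENMO and EAE arrays with that of all T, and the spread of the single ENMO array was taken to be that of the rest.

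The 2 EAE arrays gave different pictures. EAEcoI lay on slide 2 and ENMO and EAEcoP on slide 1, so against EAEcoI antibody and slide cannot be told apart. Against EAEcoI, Cd3d was 2.54-fold and Cd247 6.14-fold higher in ENMO, 2 of 6 genes more than 2-fold higher at a background of 14.9%, and 0 of 6 were lower at 18.0%. Against EAEcoP, Cd3d was 2.69-fold, Cd3g 4.08-fold and Lck 2.49-fold higher, 3 of 6 at 26.4%, and 0 of 6 were lower at 30.3%, but Cd247 was 1.66-fold lower. Cd3d was therefore the gene whose ratio hardly depended on the EAE array. The genes Cd3d, Cd3g and Lck were higher in ENMO than on both EAE arrays, 3 of 7, as 31.7% of all probes were, and Cd3d and Lck were higher than on every other array, 2 of 7, as 9.61% of probes were. Lck exceeded NMO-IgG only by no more than the spread between spots.

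Control IgG and PBS could be compared with T cells present. EAEcoI and EAEcoP lay on different slides, as did control IgG only and the other arrays without T cells. In comparisons across these slides antibody and slide cannot be told apart. Cd247 was 10.2-fold lower in EAEcoI than in EAEcoP, 1 of 7 genes at 26.2%, and Cd3g (2.34-fold), Cd4 (at least 2.35-fold) and Lck (2.26-fold) were higher, 3 of 7 at 25.9%. Of the antibodies without T cells, NMO-IgG only had 5.86-fold more Lck than control IgG only, 1 of 5 genes at 16.6%. Its Cd3g was at least 3.29-fold and its Cd247 at least 2.97-fold lower, 2 of 5 at 14.1%. Against healthy control, control IgG only had at least 3.05-fold more Cd247, 1 of 5 at 12.8%, and 4.97-fold less Lck, 1 of 5 at 16.1%. NMO-IgG only was higher than healthy control by more than 2-fold for 0 of 4 genes (13.7%), and at least 2.32-fold lower for Cd3g, 1 of 4 at 11.6%. Arrays without T cell transfer thus differed from each other in Cd247 and Lck by several-fold. With T cells and antibody as additive terms, 0 of 27488 probes differed between NMO-IgG and control IgG in limma (0.0%), and 367 (1.34%) had an unadjusted p under 0.05, none of them among the 7 genes.

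Over the 6 arrays the CD3 chains had no order in common. Pearson's r of log2 NSI was 0.47 for Cd3d with Cd247, 0.16 for Cd3d with Cd3g and -0.02 for Cd3g with Cd247, and the 10 pairs among Cd3d, Cd3g, Cd247, Lck and Cd5 ran from -0.67 to 0.55. These are descriptions over 6 arrays that share 2 slides and differ in the share of probes above background. The mean centred log2 NSI of the 4 CD3 chains, Cd3e included, was 1.07 in ENMO, 0.41 for control IgG only, 0.40 in EAEcoP, -0.38 in EAEcoI, -0.63 in healthy control and -0.88 for NMO-IgG only. Since Cd3e was above background on no array, the mean was also taken without it, after the values were seen, which gave 0.26 for control IgG only and 0.44 for EAEcoP. Some Cd247 values in it were not well above background either. Among 8310 probes of named genes the most similar were Srms, a Src-related kinase (r = 0.973), Mfap2, a microfibril component (0.967), the transcription factor Klf6 (0.966), the growth factor Vegfb (0.957) and Zswim4 (0.956). Without Cd3e in the mean these 5 had an r between 0.915 and 0.941. Klf6 had an NSI of 653 in ENMO and 408 for control IgG only, against 92.6 to 240 on the other 4 arrays.

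The receptor's own chains and other genes of the pathway were taken from lists chosen for this tissue. Here and below, a gene named from a list is given by its testable probe with the largest difference between all T and all non-T. Its values therefore need not hold for its other probes, which are given for Tcrb only. The beta chain gene Tcrb has 2 probes to the same target (BC091428), and they disagreed. The first, well above background in ENMO and EAEcoP only, gave 34.8 for ENMO, 7.04 for EAEcoI and 105 for EAEcoP, with 9.02, 3.13 and 6.79 without T cells (limma adjusted p = 0.382). Its value in EAEcoI was thus no higher than on some arrays without T cells. The second, well above background on all 6 arrays, had 173, 53.8 and 77.1 with T cells and 83.3, 110 and 204 without, a log2 difference of -0.46 (limma adjusted p = 0.783). The partner chain Cd8b (log2 difference -0.15) and the pre-T cell alpha chain Ptcra (-0.15) were well above background on all 6 arrays, and Trat1 on none. Besides the 9 genes, 98 probes, both Tcrb probes among them, were picked because their description mentions the T cell receptor. Whether all of these probes stand for variable or constant regions was not checked, and whether they share signal was not tested. Of 75 testable ones 39 were higher and 36 lower with T cells, with a median log2 difference of 0.03 beside 0.01 for all probes tested. None passed the test. Without T cells 41 to 54 of the 98 were well above background, and with T cells 59 to 69, beside 35.3% to 41.4% and 44.3% to 60.0% of all probes.

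Of 23 testable probes of the proximal signalling genes, 0 passed, 16 were higher with T cells and 7 lower, and the median log2 difference was 0.25. The adaptor Nck2 had 55.7, 129 and 251 with T cells and 16.9, 49.2 and 21.9 without (4.62-fold, limma adjusted p = 0.277). Prkcq, the protein kinase C of the T cell synapse, had 6.62, 8.76 and 52.3 with T cells, of which 2 were well above background, and 2.70, 5.28 and 3.82 without, where none was. Ubash3a, a negative regulator, had a log2 difference of -1.43 (limma adjusted p = 0.555). Of the 20 co-stimulation and adhesion probes, 9 were higher and 11 lower (median -0.20), and of the 33 activation and effector probes 17 were higher and 16 lower (median 0.01), with 0 passing in either list. Cd7, a surface marker of T and NK cells, had 178, 91.0 and 93.2 with T cells and 31.3, 54.1 and 42.4 without (2.76-fold, limma adjusted p = 0.351), and Cd6, a relative of Cd5, had 737, 418 and 249 against 153, 187 and 269. Cd7 did not overlap between the groups, as 11.3% of all probes did not with T cells above, and Cd6 did. Cxcr3, a chemokine receptor of activated T cells, had 13.2, 18.6 and 17.8 with T cells, of which 2 were well above background, and 7.46, 2.34 and 5.45 without, where none was, and Cxcr6 was 4.41-fold lower (limma adjusted p = 0.258).

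Markers of other cells were read on the same arrays, and their part in the values of the T cell genes was not tested. The summed NSI of the NK cell list was 158 to 805 with T cells and 58.0 to 93.0 without, with 3 to 5 against 1 to 2 of its 10 probes well above background, where all probes had the shares given above. Of its 6 testable probes 4 were higher and 2 lower with T cells, and a probe without a value for healthy control is missing from that sum. Nkg7, a granule protein of NK and cytotoxic T cells, had 45.8, 129 and 501 with T cells and 18.0 to 23.9 without (6.63-fold, limma adjusted p = 0.261). Its 501 in EAEcoP was a large part of the 805 summed there, so the 2 are not separate results. The myeloid list summed to 10471 to 17417 with T cells and 6802 to 8664 without. Of its 26 probes 17 to 24 were well above background with T cells and 14 to 15 without, beside the same shares of all probes. Of its 24 testable probes 16 were higher and 8 lower with T cells. Lyz, a lysozyme of macrophages and neutrophils with the largest difference in the list, was at least 29.5-fold higher with T cells (limma adjusted p = 0.151). The neutrophil list summed to 252 to 472 with and 210 to 276 without T cells, and the B cell list to 93.6 to 307 with and 203 to 302 without, so that both overlapped. Of 9 testable neutrophil probes 4 were higher and 5 lower with T cells, and of 6 testable B cell probes 1 was higher and 5 were lower. No probe of these lists passed the test.

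Some probes of each list of the tissue's own markers were well above background on every array. This held for 10 to 14 of 14 oligodendrocyte probes, 4 to 10 of 15 neuron probes and 3 to 12 of 18 astrocyte probes, beside 35.3% to 60.0% of all probes. Astrocyte probes were fewest on control IgG only, 3 of 18 beside 35.3%. Neuron probes were fewest in healthy control, 4 of 15 beside 41.4%, so both fell below the share of all probes. The Gfap probe given here, for the defining astrocyte filament, was well above background with T cells only (NSI 29.9 to 143, against 4.87 to 12.5). Of the 13 testable astrocyte probes 6 were higher and 7 lower with T cells, with log2 differences of -1.21 for the gap junction gene Gja1 and -1.13 for Aldh1l1. Of the 14 testable probes of reference genes, which are commonly used as constant, 8 were higher and 6 lower with T cells, and none passed the test. Hprt1 was well above background in 1 group, healthy control (89.9), with 4.37 to 7.50 with T cells. Gapdh reached an NSI of 355 in EAEcoP, with 75.5 in EAEcoI and 59.0 in ENMO, and 11.1 to 22.5 without T cells (6.78-fold, limma adjusted p = 0.228). Ppia was at least 3.41-fold higher with T cells. Cd247, Gapdh, Ppia and the first Tcrb probe each had their highest value in EAEcoP, and Cd247 and Ppia were higher for control IgG only than on the other 2 arrays without T cells. Cd3d and Cd3g did not have their highest value in EAEcoP. Gapdh and Ppia were themselves picked by their difference between all T and all non-T, and Hprt1 was highest in healthy control. The share of all probes with their highest value in EAEcoP was not worked out, so the shared peak cannot be weighed. What part it played in the difference of Cd247 was not tested.

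**Figure D4:**
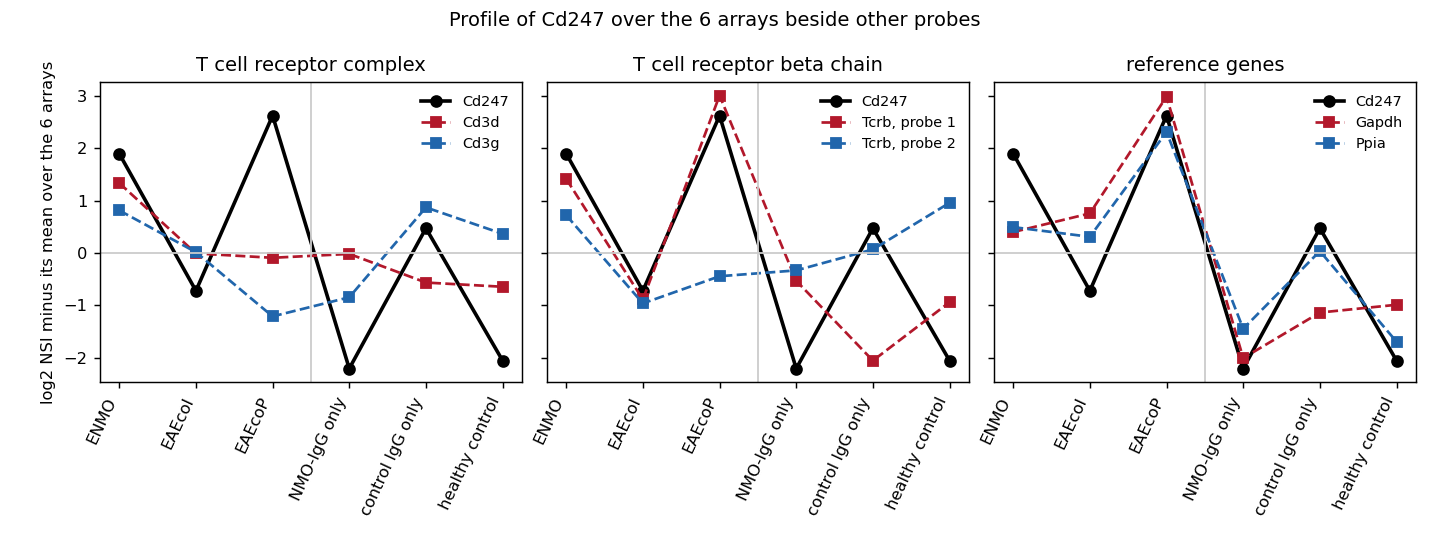
Log2 NSI minus its mean over the 6 arrays for Cd247 (black, in each panel) beside Cd3d and Cd3g, both Tcrb probes, and the reference genes Gapdh and Ppia, with values drawn whether or not the probe was well above background. Cd247 peaks in EAEcoP (NSI 69.4) as do both reference genes drawn and the first Tcrb probe (105), while Cd3d peaks in ENMO and Cd3g for control IgG only. The reference genes drawn were among those with the largest difference between all T and all non-T.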

How the data were processed

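Spinal cord RNA of 6 groups of rats, pooled and amplified once, was hybridised to 6 one-colour Agilent arrays (1 per group). Per the file headers, the deposited intensity of each spot is the scanner software's processed signal, corrected for background and not normalized between arrays, with marks for outlier spots and for spots well above background. The authors' second deposited set, 1 intensity per target, equals it within 0.1% for all 32374 targets with 1 spot. Outlier spots were left out, spots of a probe averaged as log2 intensity, and the 41012 probes quantile-normalized, as the authors did. The number of arrays limits the precision.

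Probes well above background on at least 1 array were fitted with limma 3.58.1 in R 4.3.3, with Benjamini-Hochberg adjustment over all of them and a threshold of 0.05: all T against all non-T, ENMO against EAE in a fit of 3 groups, and NMO-IgG against control IgG with T cells and antibody as additive terms. The fit was tested on simulated data with large changes and a common spread for all probes, which does not show how it handles smaller differences. Pairs of arrays were called past 2-fold without a test. A probe not well above background on an array was set to the higher of its own value and that array's lowest NSI above background, which gives "at least" ratios. This was done for the genes counted in pairs of arrays, and not for the shares of all probes beside them. Such ratios are limits under this processing only, as probes brighter than that lowest NSI could also be marked not well above background. Differences of single genes between 3 and 3 arrays also had an exact permutation test. Its smallest possible p is 0.1, so it could not pass 0.05 and no result is drawn from it.

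The genes, lists and tests were chosen with earlier results of these data known. Named besides the 9 genes were up to 4 genes of a list, from those with the largest difference of all T against all non-T, and the 5 named genes most similar to the mean profile of the CD3 chains among probes well above background on at least 3 arrays. A list gene with several probes was represented by the probe with the largest difference. One gene that this rule names is not reported here. Alternatives were 75th percentile scaling, no normalization, normexp with an offset of 50, outlier spots kept, other filters, the brightest probe per target, the deposited values per target, ratios of mean intensities, an intensity trend, slide or antibody as a block, values within a slide, single EAE arrays and leaving out each array. The mean of the CD3 chains without Cd3e and the Cd247 difference with arrays set to their lowest NSI above background were added after the values were seen.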

Additional observations from a re-analysis of the deposited data

Results flagged for a closer look

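Cd247, the zeta chain, stood out because NMO-IgG and control IgG were ordered in opposite ways with and without T cells. With T cells its log2 NSI was 2.62 higher in ENMO than in EAEcoI (41.9 against 6.81). Without T cells the log2 difference between NMO-IgG only and control IgG only was -2.68 (2.43, not well above background, against 15.6), so that NMO-IgG only was at least 2.97-fold lower. ENMO and control IgG only lay on slide 1, EAEcoI and NMO-IgG only on slide 2, so the opposite order coincides with the slide, and the 2 cannot be told apart. Each value comes from 1 array, and the difference between both contrasts was not tested.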

How the results depend on the processing

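None of the 7 testable genes passed the threshold under any alternative, with a lowest adjusted p of 0.107 for all T against all non-T (no normalization) and 0.322 for ENMO against EAE (against EAEcoP alone). Over all probes, limma gave 34 in all T against all non-T with no normalization and 53 in NMO-IgG against control IgG with slide as a block, in place of 0. Leaving out 1 array gave 0 to 213 calls for all T against all non-T (213 without ENMO, 3 without EAEcoI) and 0 to 252 for NMO-IgG against control IgG (252 without control IgG only, 7 without EAEcoI), and 0 for ENMO against EAE. The cause was not tested.

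Directions on the log2 scale turned as follows. With no normalization, all T against all non-T became 0.74 for Cd4, 0.49 for Cd5 and 0.56 for Cd3g, and ENMO against EAE became -0.49 for Cd4, -0.59 for Cd5 and -0.51 for Cd8a. The normexp correction gave 0.11 for Cd3g in the first and -0.05 for Cd8a in the second comparison, and slide as a block -0.52 for Cd247 in the second. Within slide 2, all T against all non-T was 0.17 for Cd4, 0.10 for Cd5 and 0.25 for Cd3g. ENMO was -0.27 (Cd4) and -0.30 (Cd5) against EAEcoI alone, and -0.73 (Cd247) and -0.12 (Cd8a) against EAEcoP alone. Leaving out 1 array gave, for all T against all non-T, -0.51 to 0.10 for Cd4, -0.28 to 0.99 for Lck (lowest without control IgG only) and -0.75 to 0.28 for Cd3g, and for ENMO against EAE -0.27 to 0.96 for Cd4, -0.30 to 0.69 for Cd5, -0.73 to 2.62 for Cd247 and -0.12 to 0.68 for Cd8a. Cd3d, Cd247 and Cd8a kept their direction in all T against all non-T, and Cd3d, Cd3g and Lck in ENMO against EAE, under every alternative run. Of 268 values of single genes under alternatives, 24 turned direction. These are not separate checks. In ENMO against EAE, leaving out 1 EAE array repeats the comparison with the other EAE array alone, so those values and turns are counted again. Several alternatives, such as outlier spots kept, an intensity trend or other filters, leave the difference itself nearly or wholly unchanged. The share that turned therefore does not measure how stable the directions are. With antibody as a block, which pairs the arrays of the same antibody, all T against all non-T had 0 calls and the same differences (Cd247 2.53, SE 1.06).

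Cd3e and Cd2 were not well above background on any array, and Cd4 and Cd8a on few, so that a change in them was not detectable here. Differences between rats cannot be estimated from pools.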
